A study of Mus musculus with 4 samples.

Results

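The response of mouse embryonic stem cells (mESCs) to a JAK inhibitor in 2i medium without LIF was measured by RNA-seq of R1 cells, an established mESC line. The control library, 2i-L, came from cells held for 2 days in serum-containing, feeder-free medium with CHIR99021 (3 µM), which inhibits GSK3, and PD0325901 (1 µM), which inhibits MEK, and with no LIF added. The 2iJ library came from the same line in the same medium with a JAK inhibitor at 2 µM, so that both cultures shared the GSK3 and MEK inhibitors and the serum. A further pair of libraries, 2iJ+B-A and TSC, served for reference only. In 2iJ+B-A, 2iJ was supplemented with 10 ng/ml of BMP4 and 10 µM of an ALK5 inhibitor. The paper used this inhibitor to block Activin and Nodal signaling. TSC were trophoblast stem cells of the F4 line with a day 2 label. Each culture was 1 library here. The paper describes further RNA-seq samples of the mESC cultures, with an adjustment for batch effects between experiments, and these samples were not part of this comparison. Genes with at least 1 CPM (counts relative to the scaled library size) in 2i-L or 2iJ were compared, which left 13173 of the 37620 genes in the count tables, beside 14263 genes that reached this level in any of the 4 libraries.

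LIF binds its receptor Lifr and the shared subunit gp130, the product of Il6st, and the receptor-bound JAK kinases then phosphorylate STAT3, which enters the nucleus and activates its targets. In mESCs these targets include the naive pluripotency factors Klf4 and Tfcp2l1, the feedback inhibitor Socs3 and Stat3 itself. A JAK inhibitor blocks the kinase step, and was used in the study as the experimental form of an absent LIF signal. Serum and the cells themselves can still supply cytokines of the gp130 family when LIF is left out of the medium.

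The 2i-L and 2iJ libraries were of nearly equal depth, with 34312578 and 35015058 counts on genes, and 3 counts on a gene, the smallest signal taken as detectable, came to 0.0902 and 0.0874 CPM. The summed level of 6 mESC markers (Pou5f1, Sox2, Nanog, Esrrb, Zfp42 and Klf4) was 3476 CPM in 2i-L and 3016 CPM in 2iJ, beside 534 CPM in TSC. Lists for other cell types had lower sums in both. The 5 TSC markers summed to 23.3 and 27.6 CPM, beside 1090 CPM in TSC. Summed levels in 2i-L, 2iJ and TSC were 74.6, 71.4 and 24.0 CPM for 9 fibroblast genes. They were 10.7, 19.4 and 54.1 CPM for 6 primitive endoderm genes and 16.1, 14.8 and 182 CPM for 5 streak genes. For the 3 of 4 neural ectoderm genes that had a row, they were 41.1, 41.3 and 81.8 CPM. Of the blood and endothelial list, Ptprc had no count in either, and nearly all of the sum of 134 and 138 CPM was Pecam1, which mESCs also express. In bulk RNA, a change in the number of cells of a type and a change in RNA per cell cannot be told apart.

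With 1 library a side, no model with replicates could be fitted and no difference has a replicate check. An effect of the inhibitor and a difference between the 2 cultures of another origin, such as cell density, cannot be told apart. Each gene is therefore described by its level in both libraries and by the log2 ratio of 2iJ to 2i-L after adding 0.5 CPM, positive where 2iJ was higher. Brackets give the 95% Clopper-Pearson interval of that ratio, which covers counting error only. The interval narrows as counts rise. Shares of intervals on one side of 0 are given for lists and for all genes without matching them by level. A gene was called where it differed by at least 2-fold on this scale.

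Most genes differed by well under 2-fold. The log2 ratio had a median of 0.00 over the 13173 genes, and the middle 90% of genes lay between -0.53 and 0.60. The counting interval lay below 0 for 26.8% of these genes and above 0 for 26.9%. At least 2-fold higher in 2iJ were 172 genes, 1.31% of those compared, and at least 2-fold lower were 130 genes, 0.987%. All but 5 of the lower genes and all but 3 of the higher ones differed by less than 4-fold. Among genes with at least 10 CPM in either library, 45 were called higher and 52 lower, whereas under 10 CPM 127 were higher and 78 lower. The called genes differed in base composition. Exons of genes called lower had a median GC content of 53.2%, those called higher 48.7% and all genes 49.9%. When the genes were cut into 5 equal groups by GC content, the group from 55.5% to 74.4% held 50 lower and 25 higher genes, at a median log2 ratio of -0.045, and the group from 29.6% to 44.2% held 5 lower and 42 higher genes, at a median of 0.021. The part of base composition in the calls was not tested.

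**Figure D1:**
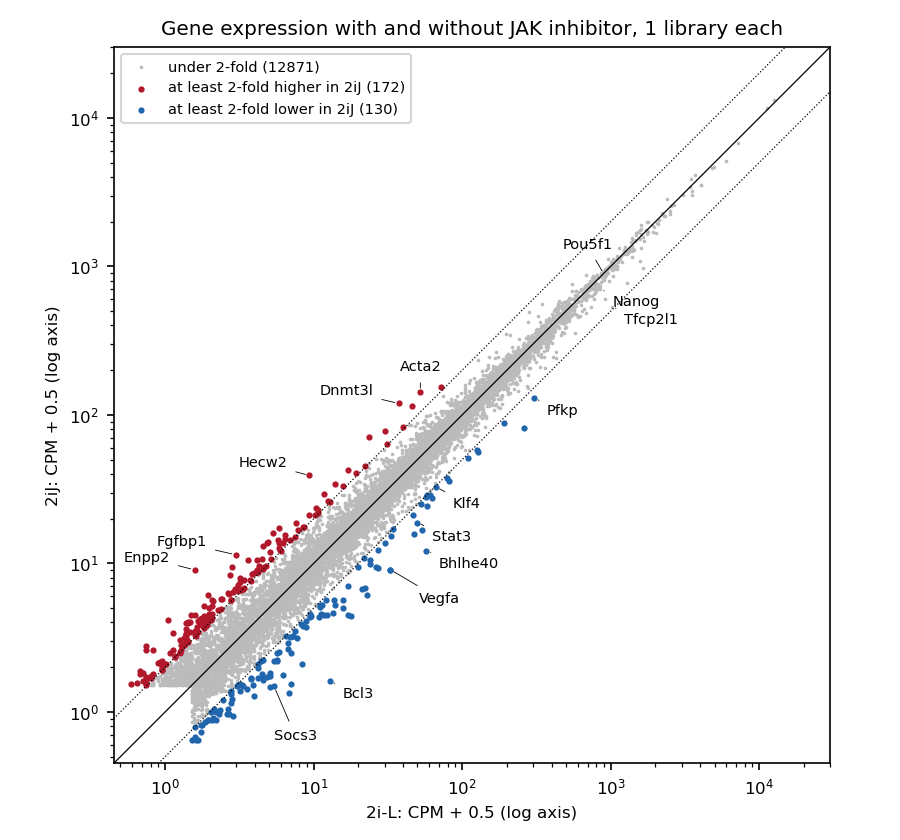
Level of each of the 13173 genes in 2i-L (horizontal) and 2iJ (vertical), in CPM + 0.5 on log axes, 1 library each. The solid line marks equal levels and the dotted lines 2-fold differences. Red points are the 172 genes called higher and blue points the 130 called lower, most of them at low levels. Bcl3 and Bhlhe40 lie far below the diagonal and Pou5f1 on it.

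The largest difference among genes with at least 10 CPM was in Bcl3, a nuclear IκB protein that acts as a transcriptional co-regulator. Bcl3 (ENSMUSG00000053175, chromosome 7 from 20393811 to 20408119, NCBIM37) had 413 counts in 2i-L and 38 in 2iJ, or 12.4 and 1.11 CPM, a log2 ratio of -3.01 [-3.36 to -2.65]. The size of this ratio depended on the value added, and was -2.21 with 2 CPM and -3.38 with 0.1 CPM. Bcl3 was as low in 2iJ+B-A, at 0.692 CPM, and at 11.2 CPM in TSC. Bhlhe40 (chromosome 6 from 108610623 to 108616919), a basic helix-loop-helix repressor, came next with 56.9 CPM in 2i-L and 11.6 CPM in 2iJ, a log2 ratio of -2.25 [-2.40 to -2.10]. At the other end stood Hecw2 (chromosome 1 from 53863726 to 54252012), a HECT-type ubiquitin ligase, with 8.87 CPM in 2i-L and 38.6 CPM in 2iJ, a log2 ratio of 2.06 [1.88 to 2.24]. Hecw2 was at 4.15 CPM in 2iJ+B-A, below its level in 2i-L, so the high level was seen in the 2iJ library only among the 4.

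Of the measured ligands, receptors and kinases upstream of STAT3, 0 were called, although smaller differences were seen. The interval lay above 0 for all 3 ligands and for 3 of 5 receptors, compared with 26.9% of all genes. It came close to 0 for the ligand Osm [0.008 to 0.729] and the receptor Il11ra1 [0.035 to 0.745]. The counts of Il11ra1 are also uncertain, because an estimated 77.0% of its transcript was matched elsewhere in the genome. All 4 kinases had a log2 ratio below 0, compared with 49.9% of all genes, and 2 of them an interval below 0, compared with 26.8%. Of 41 listed genes of the LIF, gp130 and JAK-STAT pathway, 35 reached 1 CPM. Of these, 0 were called higher and 2 lower, Socs3 and Stat3, beside 1.31% and 0.987% of all genes, and the median log2 ratio was -0.06. Of the ligands, Lif was transcribed by the cells, at 10.2 CPM in 2i-L and 12.5 CPM in 2iJ (log2 ratio 0.28 [0.08 to 0.48]), and Ctf1, which encodes cardiotrophin-1, had 2.95 and 4.66 CPM. Il6, Il11, Cntf and Clcf1 stayed under 1 CPM in both. Both LIF receptor subunits were present. Lifr was at 54.7 and 61.5 CPM (0.17 [0.08 to 0.26]) and Il6st at 123 and 156 CPM (0.34 [0.28 to 0.39]), so neither was lower with the inhibitor.

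The kinases that the inhibitor targets differed little in mRNA, apart from Jak3. Jak1 was at 59.9 CPM in 2i-L and 53.8 CPM in 2iJ (-0.15 [-0.25 to -0.06]), Jak2 at 15.97 and 15.03 CPM and Tyk2 at 26.3 and 25.7 CPM. The counting intervals of Jak2 and Tyk2 included 0. Jak3 was lower, at 47.4 and 28.6 CPM (-0.72 [-0.83 to -0.60]), although under 2-fold. Per kilobase of exon, Jak3 and Jak1 had the highest kinase levels in 2i-L, 8.84 and 8.28 CPM per kb, and in 2iJ Jak1 led with 7.44 CPM per kb.

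Of 7 STAT factors, 6 were lower in 2iJ, compared with 49.9% of all genes, and 1 was higher. The interval lay below 0 for 5 of the 7, compared with 26.8% of all genes. Stat3 (ENSMUSG00000004040, chromosome 11 from 100746412 to 100800854) had 1641 counts in 2i-L and 628 in 2iJ, or 49.3 and 18.3 CPM, a log2 ratio of -1.41 [-1.54 to -1.28]. In 2iJ+B-A it was at 15.3 CPM and in TSC at 123 CPM. Stat6 was at 32.6 and 18.9 CPM (-0.77 [-0.91 to -0.63]), and Stat5b and Stat2 had log2 ratios of -0.47 and -0.37. Stat4, the exception, was at 20.1 CPM in 2i-L and 27.4 CPM in 2iJ (0.44 [0.30 to 0.58]). Per kilobase of exon, Stat3 was at 5.18 CPM per kb in 2i-L, below Stat2, Stat6 and Stat4, and at 1.92 CPM per kb in 2iJ.

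Among 16 inhibitors of the pathway, Socs3 alone was called, lower in 2iJ, beside 0.987% of all genes called lower and 1.31% higher. Socs3 (ENSMUSG00000053113, chromosome 11 from 117827393 to 117831361), the suppressor that binds gp130 and the JAK kinases, had 163 counts in 2i-L and 34 in 2iJ, or 4.90 and 0.990 CPM, a log2 ratio of -1.86 [-2.24 to -1.46]. In 2iJ+B-A it was at 3.86 CPM, near its 2i-L level, and in TSC at 40.8 CPM. Other suppressors were closer to their 2i-L levels. Cish, another STAT-induced suppressor, had 3.28 and 2.45 CPM (-0.36 [-0.72 to 0.00]) and Socs1 40 and 36 counts, with an interval that included 0. Socs2 was higher, at 46.3 and 57.1 CPM (0.30 [0.20 to 0.40]). The phosphatase Ptpn6 (SHP-1) was at 53.6 and 42.2 CPM (-0.34) and Ptpn11 (SHP-2) at 118 and 129 CPM (0.13), and the remaining inhibitors had log2 ratios between -0.31 and 0.13.

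**Figure D2:**
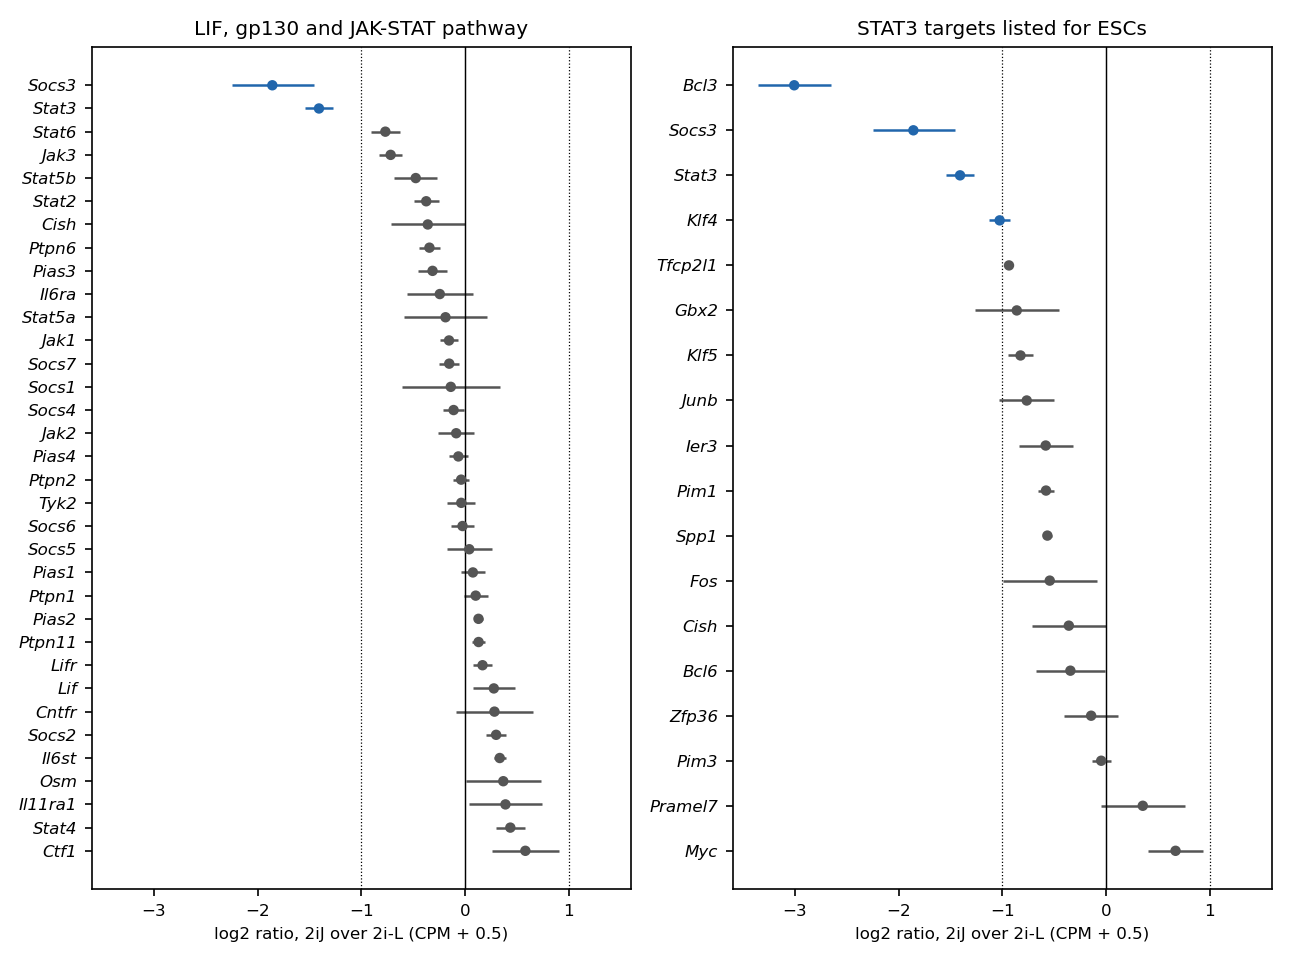
Log2 ratio of 2iJ to 2i-L (horizontal, CPM + 0.5) for the measured genes of the LIF, gp130 and JAK-STAT pathway (left, 1 gene not shown) and the 18 STAT3 targets (right), sorted. Horizontal bars are 95% counting intervals, dotted lines mark 2-fold and blue marks genes called lower. In the pathway Socs3 and Stat3 stand apart, whereas 16 of the 18 targets lie left of 0.

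Genes listed as STAT3 targets in mESCs were mostly lower with the inhibitor. All 18 were measured, and 16 had a log2 ratio below 0, compared with 49.9% of all genes. Of the 18, 4 were called lower and 0 higher, beside 0.987% and 1.31% of all genes, and the median log2 ratio was -0.58. With 2 CPM added 3 were called lower, since Klf4 was then at -0.99, and with 0.1 CPM added 5. The counting interval lay below 0 for 13 of them, as for 26.8% of all genes. This list was drawn up with earlier results of these data known. The 4 called genes were Bcl3, Socs3, Stat3 and Klf4. Klf4 (ENSMUSG00000003032, chromosome 4 from 55540013 to 55545347), a reprogramming factor of the Krüppel-like family, had 66.2 CPM in 2i-L and 32.2 CPM in 2iJ, a log2 ratio of -1.03 [-1.13 to -0.92], and was at 73.1 CPM when BMP4 and the ALK5 inhibitor were also present.

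Several further STAT3 targets were lower by just under 2-fold. Tfcp2l1, a transcription factor of naive mESCs, was at 1013 CPM in 2i-L and 529 CPM in 2iJ, a log2 ratio of -0.94 [-0.96 to -0.91], and 2iJ+B-A had 479 CPM. Gbx2, a homeobox factor, was at 2.95 and 1.40 CPM (-0.86), Klf5 at 47.5 and 26.6 CPM (-0.82) and the AP-1 subunit Junb at 8.27 and 4.66 CPM (-0.77). Smaller differences were seen for the kinase Pim1, at 97.9 and 65.4 CPM (-0.58), and for Spp1, which encodes osteopontin, at 275 and 186 CPM (-0.57). The related kinase Pim3 was at 59.0 and 57.1 CPM, with an interval that included 0. Myc, a proto-oncogene, went the other way, at 4.90 CPM in 2i-L and 8.10 CPM in 2iJ (0.67 [0.41 to 0.93]), and 2iJ+B-A had 24.1 CPM.

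The promoters of the 4 called STAT3 targets are shown because these genes carry the largest differences of the STAT3 target list. A further reason is that a STAT dimer binds a short palindrome. Each sequence runs 5′ to 3′ on the strand of its gene from 250 bases before to 50 bases after the gene start, from RefSeq on build GRCm38.p6, which is not the build of the counts. Capitals mark the motif TTCNNNGAA, which reads the same on both strands.
Socs3 (chr11:117969317-117969616, minus strand): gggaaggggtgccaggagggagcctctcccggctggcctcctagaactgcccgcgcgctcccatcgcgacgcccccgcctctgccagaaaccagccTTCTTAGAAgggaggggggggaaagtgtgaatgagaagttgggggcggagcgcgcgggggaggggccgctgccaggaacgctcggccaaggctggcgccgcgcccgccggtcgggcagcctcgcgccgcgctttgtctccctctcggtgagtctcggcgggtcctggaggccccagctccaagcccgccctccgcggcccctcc
Bcl3 (chr7:19822706-19823005, minus strand): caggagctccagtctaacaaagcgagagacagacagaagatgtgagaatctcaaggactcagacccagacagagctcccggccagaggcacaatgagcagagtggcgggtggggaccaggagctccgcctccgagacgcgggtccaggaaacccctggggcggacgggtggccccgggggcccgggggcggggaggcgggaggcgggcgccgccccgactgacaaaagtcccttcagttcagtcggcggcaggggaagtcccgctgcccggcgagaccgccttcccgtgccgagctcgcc
Stat3 (chr11:100939491-100939790, minus strand): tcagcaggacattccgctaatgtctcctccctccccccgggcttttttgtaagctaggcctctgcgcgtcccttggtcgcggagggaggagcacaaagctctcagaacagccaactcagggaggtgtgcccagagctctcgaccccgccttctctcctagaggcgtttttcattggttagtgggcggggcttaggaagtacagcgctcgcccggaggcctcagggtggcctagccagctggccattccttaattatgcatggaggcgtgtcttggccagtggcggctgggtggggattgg
Klf4 (chr4:55532426-55532725, minus strand): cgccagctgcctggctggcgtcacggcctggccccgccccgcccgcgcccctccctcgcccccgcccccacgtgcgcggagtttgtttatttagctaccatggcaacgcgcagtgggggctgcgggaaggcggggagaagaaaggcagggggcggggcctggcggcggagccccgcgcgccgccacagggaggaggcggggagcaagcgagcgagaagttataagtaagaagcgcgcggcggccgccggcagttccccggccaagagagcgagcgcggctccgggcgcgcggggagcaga
The Socs3 promoter held 1 match, which started at position -154 relative to the gene start, and the other 3 windows held none. Of all 32851 promoters in the RefSeq table, 2726 (8.30%) held the motif. A match is a string of letters and not a measured binding site. A comparison of this share between higher, lower and all genes was void, because the table matched 129 of the 172 genes called higher, 86 of the 130 called lower (66.2%) and 77.2% of all genes kept.

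The core pluripotency factors stayed close to their 2i-L levels. Pou5f1, which encodes Oct4, was at 899 CPM in 2i-L and 885 CPM in 2iJ (log2 ratio -0.02 [-0.05 to -0.00]) and Sox2 at 484 and 464 CPM (-0.06 [-0.09 to -0.03]). Nanog was lower, at 845 and 700.3 CPM (-0.27 [-0.30 to -0.25]), as was the orphan nuclear receptor Esrrb, at 578 and 476 CPM (-0.28 [-0.31 to -0.25]). Counts of Pou5f1 and Nanog are uncertain, because an estimated share of over 40% of each transcript was also matched elsewhere in the genome.

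Across 25 genes of general and naive pluripotency, 18 were lower and 7 higher in 2iJ, compared with 49.9% and 50.1% of all genes. The median log2 ratio was -0.27. The only gene called was Klf4, lower in 2iJ, beside 0.987% of all genes called lower. With 2 CPM added 0 were called lower, and with 0.1 CPM added 2. Besides the STAT3 targets on this list, the lowest were Tdgf1, the Nodal co-receptor Cripto, at 361 and 207 CPM (-0.80), and Tcl1 at 60.3 and 37.7 CPM (-0.67). Prdm14 had a log2 ratio of -0.47, Zfp42 (Rex1) of -0.39, Tbx3 of -0.37 and Klf2 of -0.34. The genes on the higher side were Lin28a, an RNA-binding inhibitor of let-7 maturation, at 197 and 348 CPM (0.82 [0.77 to 0.86]), and with smaller log2 ratios from 0.08 to 0.39 Nr5a2, Sall4, Dppa4, Utf1, Dppa2 and Dppa3.

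Genes of the formative and primed epiblast were mostly higher. Of 16 measured, 14 had a log2 ratio above 0, compared with 50.1% of all genes, and the median was 0.41. Called higher was 1 and lower 0, beside 1.31% and 0.987% of all genes. The gene called was Dnmt3l (ENSMUSG00000000730, chromosome 10 from 77504692 to 77526367), the cofactor of the de novo DNA methyltransferases. It had 1229 counts in 2i-L and 4078 in 2iJ, or 37.0 and 119 CPM, a log2 ratio of 1.67 [1.58 to 1.76], and 85.6 CPM in 2iJ+B-A. Its partners were higher by less, Dnmt3b at 53.6 and 88.7 CPM (0.72 [0.64 to 0.81]) and Dnmt3a at 126 and 163 CPM (0.37). The maintenance enzyme Dnmt1 was at 367 and 368 CPM (0.01), and its partner Uhrf1 was lower, at 338 and 257 CPM (-0.40). The list of 9 DNA methylation genes, to which these belong, had 1 called higher, beside 1.31% of all genes, and a median of 0.01. Otx2 was at 29.5 and 44.9 CPM (0.60) and the cadherin Cdh2 at 5.08 and 8.71 CPM (0.72). Fgf5 and Pou3f1, further epiblast markers, stayed under 1 CPM in both libraries, Fgf5 with 3 counts in 2i-L and 19 in 2iJ (0.84 [0.33 to 1.11]).

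Every measured gene of the hypoxia and glycolysis list was lower in 2iJ. All 19 had a log2 ratio and a counting interval below 0, compared with 49.9% and 26.8% of all genes. Called lower were 5 and higher 0, beside 0.987% and 1.31% of all genes, and the median was -0.59. Of the HIF targets on the list, Vegfa (ENSMUSG00000023951, chromosome 17 from 46153942 to 46169326), the vascular growth factor, had 1071 and 295 counts, or 32.2 and 8.59 CPM (-1.85 [-2.03 to -1.67]). In 2iJ+B-A Vegfa was at 29.4 CPM. Egln3, a HIF prolyl hydroxylase that HIF itself induces, was at 32.1 and 8.53 CPM (-1.85 [-2.04 to -1.67]) and stayed low in 2iJ+B-A, at 3.94 CPM. Bnip3, a mitophagy receptor, was at 126 and 57.9 CPM (-1.11), with counts that are uncertain because near-identical copies exist, and the peptide hormone gene Adm was at 1.44 and 0.379 CPM (-1.15). Adm was no longer called with 2 CPM added.

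The glycolytic enzymes on the list had the same direction. Pfkp, the platelet form of phosphofructokinase, was at 306 and 129 CPM (-1.25 [-1.30 to -1.20]), whereas its liver form Pfkl was at 240 and 178 CPM (-0.42). Hexokinase Hk2 was at 275 and 151 CPM (-0.86) and Hk1 at 166 and 116 CPM (-0.51). Lactate dehydrogenase Ldha was at 1639 and 978 CPM (-0.75), phosphoglycerate kinase Pgk1 at 911 and 604 CPM (-0.59) and the glucose transporter Slc2a1 at 407 and 245 CPM (-0.73). Gapdh and Pkm2 differed least, both with a log2 ratio of -0.22, at 4084 and 3515 CPM and at 3518 and 3023 CPM. Many of these enzymes have processed pseudogenes, and their part in the counts was not tested. The exons of the list had a median GC content of 52.2%. The 2633 genes with a GC content between 51.7% and 55.5% had a median log2 ratio of -0.014, with 25 called higher and 29 lower.

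Enzymes and regulators of cholesterol synthesis were lower as a group but by less. All 14 measured genes had a log2 ratio and an interval below 0, compared with 49.9% and 26.8% of all genes. Of them 0 were called, beside 0.987% of all genes called lower. At least 1.5-fold lower were 5 (4.02% of all genes were), and the median was -0.52. Dhcr7, which catalyses a late step, was at 56.5 and 31.7 CPM (-0.83 [-0.93 to -0.72]), the sterol demethylase gene Cyp51 at 67.7 and 40.2 CPM (-0.74) and Fdps, which encodes farnesyl diphosphate synthase, at 144 and 94.2 CPM (-0.61). Their transcription factor Srebf2 was at 201 and 146 CPM (-0.46). The desaturase Scd1, a gene of fatty acid synthesis that is not on the list and was among the 20 lowest of all, was at 259 and 81.3 CPM (-1.67 [-1.73 to -1.60]).

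The amino acid and endoplasmic reticulum stress list also leaned low. Of 13 measured genes 11 were below 0, compared with 49.9% of all genes, 3 were called lower, compared with 0.987%, and 0 higher, and the median was -0.50. The called genes were Chac1, a glutathione-degrading enzyme, at 4.57 and 1.25 CPM (-1.53), the pseudokinase Trib3 at 13.2 and 5.18 CPM (-1.27) and Ddit3 (CHOP) at 7.73 and 3.41 CPM (-1.07). Ddit3 fell short of 2-fold with 2 CPM added (-0.85) and with the unstranded count (-0.80). Atf4, the factor that controls many of them, was at 183 and 134 CPM (-0.45). Psat1, a serine synthesis enzyme, was at 430.4 and 242 CPM (-0.83), whereas Asns, another ATF4 target, was at 548 and 481 CPM (-0.19).

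Targets of p53 were on the higher side. Of 12 measured 11 were above 0 and 10 had an interval above 0, compared with 50.1% and 26.9% of all genes. Of them 0 were called, beside 1.31% of all genes called higher. At least 1.5-fold higher were 4, compared with 5.33% of all genes, and the median was 0.55. Trp53inp1 was at 281 and 490 CPM (0.80 [0.77 to 0.84]), the cyclin Ccng1 at 275 and 420.2 CPM (0.61) and Mdm2, the ubiquitin ligase of p53, at 135 and 196 CPM (0.53). The cell cycle inhibitor Cdkn1a (p21) did not follow, at 122 and 121 CPM (-0.02 [-0.08 to 0.05]).

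Genes of the 2-cell-like state, which is known from a small share of mESCs, were higher. All 6 measured were above 0, compared with 50.1% of all genes, 4 were called, compared with 1.31%, and the median was 1.22. With 2 CPM added 2 were called and the median was 0.91, since Zscan4e and Zscan4f were then under 2-fold. The called genes were Zscan4 copies, whose product acts in telomere maintenance. Zscan4d (chromosome 7 from 11746992 to 11751497) had 134 counts in 2i-L and 434 in 2iJ, or 4.03 and 12.6 CPM (1.54 [1.28 to 1.798]), and Zscan4c was at 3.97 and 10.2 CPM (1.26). In 2iJ+B-A both were under 1 CPM, at 0.772 and 0.745 CPM. The Zscan4 copies share nearly all of their sequence, so their counts are uncertain and they do not count as independent genes. The list had a median GC content of 43.7%. The 2633 genes between 29.6% and 44.2% had a median log2 ratio of 0.021, with 42 called higher and 5 lower. The part of base composition in this list was not tested.

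Some BMP targets and early trophectoderm factors were higher in 2iJ, without added BMP4 and from low levels. Of 9 measured BMP targets 3 were called higher, compared with 1.31% of all genes, 0 lower, and the median was 0.79, or 0.43 over the 12 ligands and targets together. Msx1, a homeobox factor, had 18 counts in 2i-L and 126 in 2iJ, or 0.541 and 3.67 CPM (2.00 [1.56 to 2.401]). Id2 was at 8.81 and 20.5 CPM (1.18 [0.99 to 1.37]) and Id3 at 8.06 and 17.0 CPM (1.03 [0.83 to 1.23]), both inhibitors of basic helix-loop-helix factors. The counts of Id2 are uncertain because part of its transcript was also matched elsewhere in the genome. Id1 was closer to its 2i-L level, at 6.41 and 8.01 CPM (0.30), and Smad6 was lower, at 5.68 and 3.79 CPM (-0.53). With 2 CPM added Id3 was under 2-fold (0.91) and Msx1 had a ratio of 1.16. With BMP4 and the ALK5 inhibitor in the medium, Msx1 was at 14.8, Id2 at 166 and Id3 at 101 CPM.

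Of 16 measured trophectoderm and trophoblast genes, 11 were above 0, compared with 50.1% of all genes, 3 were called higher, compared with 1.31%, 0 lower, and the median was 0.37. With 2 CPM added 2 were called, since Cdx2 was then at 0.91. Cdx2 (chromosome 5 from 148112381 to 148118846), the caudal factor of the trophectoderm, was at 2.62 CPM in 2i-L and 6.70 CPM in 2iJ (1.21 [0.89 to 1.53]), while 2iJ+B-A had 33.6 CPM and TSC 45.1 CPM. Gata3 was at 2.68 and 7.43 CPM (1.32 [1.01 to 1.63]) and Gata2 at 9.92 and 23.1 CPM (1.18 [1.00 to 1.36]). These are levels well under those of TSC for Gata3, at 104 CPM, and of 2iJ+B-A for Gata2, at 236 CPM. Hand1, at 1.62 and 1.31 CPM, had an interval that included 0, and Elf5 was under 1 CPM in both. Tfap2c and Eomes were slightly lower in 2iJ, with log2 ratios of -0.12 and -0.21, and the keratins Krt8 and Krt18 slightly higher, at 0.53 and 0.37. Cdx1, the related caudal gene and a target of Wnt signaling, went the other way from Cdx2, at 15.3 and 4.51 CPM (-1.65 [-1.90 to -1.41]). These caudal genes were the ones called among 7 measured genes of the primitive streak and mesendoderm, whose median was 0.49. Over all genes, 1.31% were called higher and 0.987% lower. The streak factor T was at 2.95 and 2.85 CPM.

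**Figure D3:**
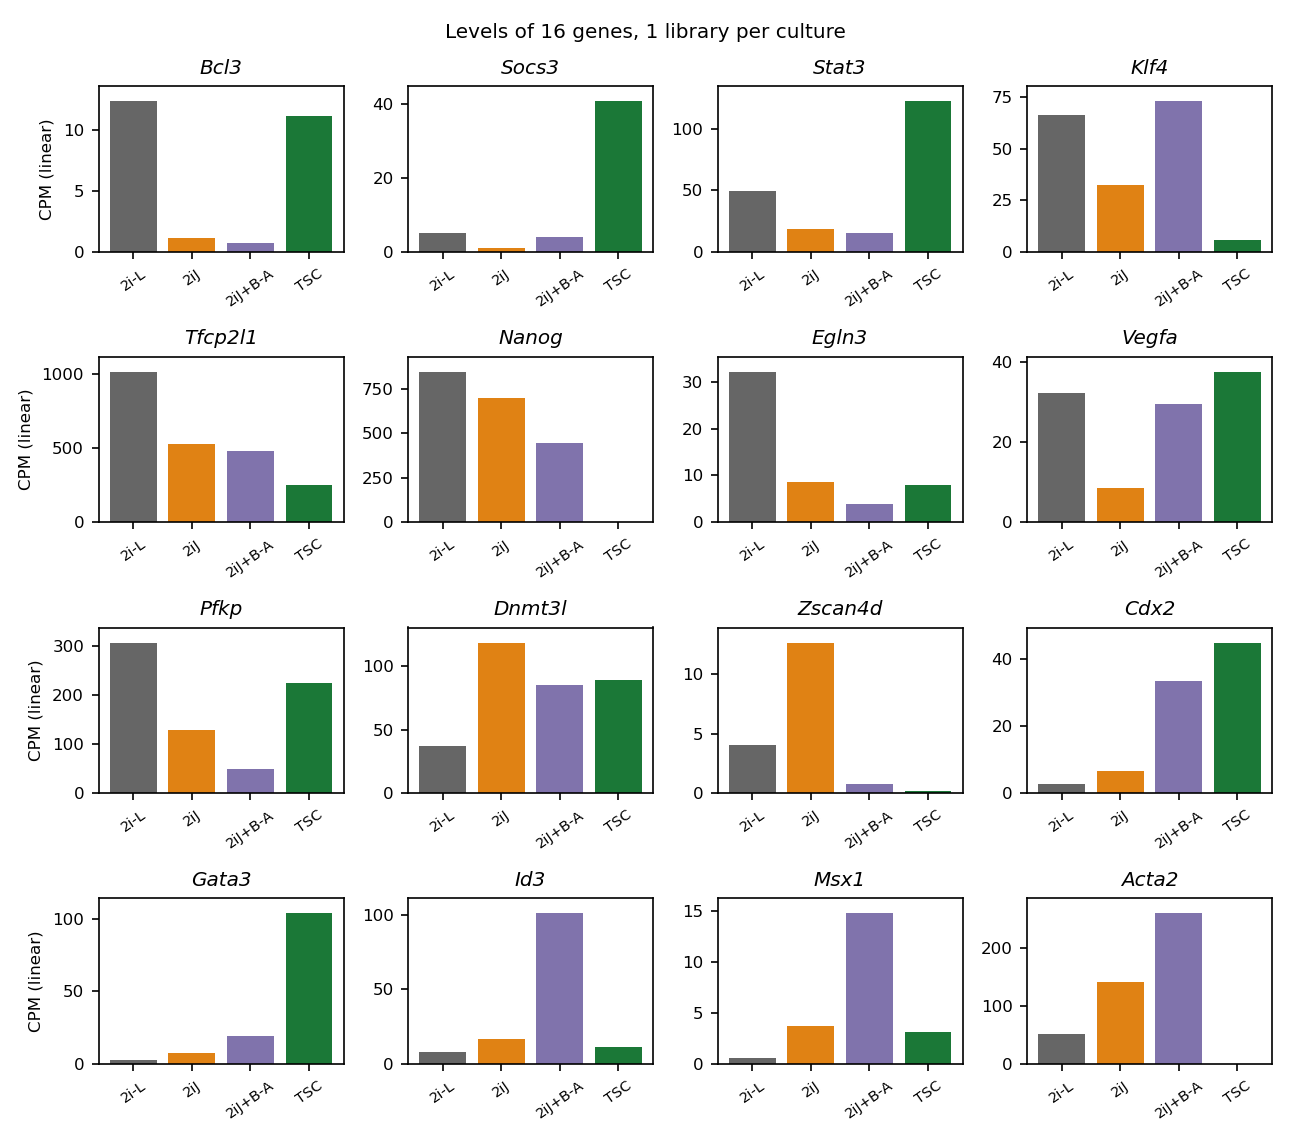
Levels of 16 genes in CPM (vertical, linear from 0, a scale of its own in each panel) in 2i-L, 2iJ, 2iJ+B-A and TSC, 1 library per bar and no error bars. Bcl3 and Stat3 were low in both cultures with the inhibitor, Vegfa and Klf4 were low in 2iJ but not in 2iJ+B-A, Zscan4d was high in 2iJ only, and Cdx2, Id3 and Msx1 were higher in 2iJ than in 2i-L and higher still in 2iJ+B-A.

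The remaining genes at either end, among those with at least 10 CPM, were of many kinds. On the lower side were Stc2, a secreted glycoprotein (573 and 135 counts, 17.2 and 3.93 CPM), the NMDA receptor subunit gene Grin1 (16.5 and 4.02 CPM, -1.91), Calb2, which encodes calretinin (22.3 and 5.62 CPM, -1.90), and the aldolase gene Aldoc (20.6 and 6.20 CPM, -1.65). Ndrg2, Sh3bp1, Capn5, Pcolce, Gm7325, Alpk3, Kbtbd11, Dtx1 and A2m, the last a protease inhibitor, had log2 ratios from -1.69 to -1.41. In 2iJ+B-A, Grin1 was at 21.4 CPM and Alpk3 at 15.6 CPM, both above 2iJ, and Stc2 was at 2.18 CPM and Calb2 at 2.80 CPM, both below it.

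On the higher side were Fgfbp1, an FGF carrier (2.50 and 10.9 CPM, 1.93), Ror1, a receptor for Wnt5a (4.81 and 15.6 CPM, 1.596), the amidating enzyme gene Pam (23.1 and 70.6 CPM, 1.59), Aox3, an aldehyde oxidase (5.38 and 16.7 CPM, 1.55), and Trp73, a member of the p53 family (144 and 452 counts, 4.33 and 13.2 CPM). Acta2, smooth muscle actin, was at 51.8 and 142 CPM (1.44 [1.36 to 1.52]) and at 259 CPM in 2iJ+B-A, and the myosin light chain gene Myl9 was at 4.45 and 13.4 CPM (1.49). Lrp2, the endocytic receptor megalin, was at 45.7 and 115 CPM (1.32) and its adaptor Dab2 at 5.29 and 13.9 CPM (1.31). Dab2 was the only 1 of 10 measured primitive endoderm genes that was called (median 0.38), beside 1.31% of all genes called higher. Plk2, Enox1, Ptpn13, Gm5662, Lrrk2, Efnb2 and Ddit4l had log2 ratios from 1.37 down to 1.22, and Gm5662 has near-identical copies.

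Lists of other pathways had 0 or 1 called gene each, beside 1.31% of all genes called higher and 0.987% lower. Of 13 measured Wnt targets 1 was called lower, Cdx1, and 0 higher, with a median of -0.04, and the feedback gene Axin2 was at 49.6 and 58.0 CPM (0.22 [0.13 to 0.32]). Of 14 Nodal and Activin genes 1 was called lower, the Activin subunit gene Inhbb at 2.11 and 0.466 CPM, whereas the targets Lefty2 and Lefty1 had log2 ratios of -0.70 and -0.52 and Nodal itself of 0.49, around a median of -0.05. Among 13 measured targets of FGF, MEK and ERK, 0 were called, with a median of -0.04 and a range from -0.86 for Etv4 to 0.94 for Etv1. Interferon and antigen presentation genes had 1 of 13 called higher, the peptide transporter Tap1 at 2.47 and 6.20 CPM (1.18 [0.85 to 1.502]), and a median of -0.04. Neither Inhbb nor Tap1 was called with 2 CPM added. The cyclins and CDK inhibitors had 0 of 13 called and a median of -0.10, with Ccnd2 (0.91) and Cdkn1c (0.92) highest.

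Lists of other tissues, housekeeping groups and extracellular matrix stayed near the median of all genes or moved by under 2-fold, with few exceptions. Over all genes, 1.31% were called higher and 0.987% lower. Of 7 measured fibroblast genes 1 was called lower, Pdgfrb at 10.5 and 4.60 CPM (-1.10), while the collagen gene Col1a1 had a log2 ratio of -0.19 and the list a median of -0.04. Of 3 neural genes 1 was called higher, Pax6, at 1.41 and 3.35 CPM (1.01), and the median was 0.72. With 2 CPM added neither Pdgfrb nor Pax6 was called, and with TMM from the pair alone Pax6 was at 0.996. None of 8 germ cell, 11 basement membrane, 7 mitochondrially encoded, 3 metallothionein and 3 blood and endothelial genes was called, and their medians were 0.35, 0.36, 0.16, -0.32 and 0.05.

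**Figure D4:**
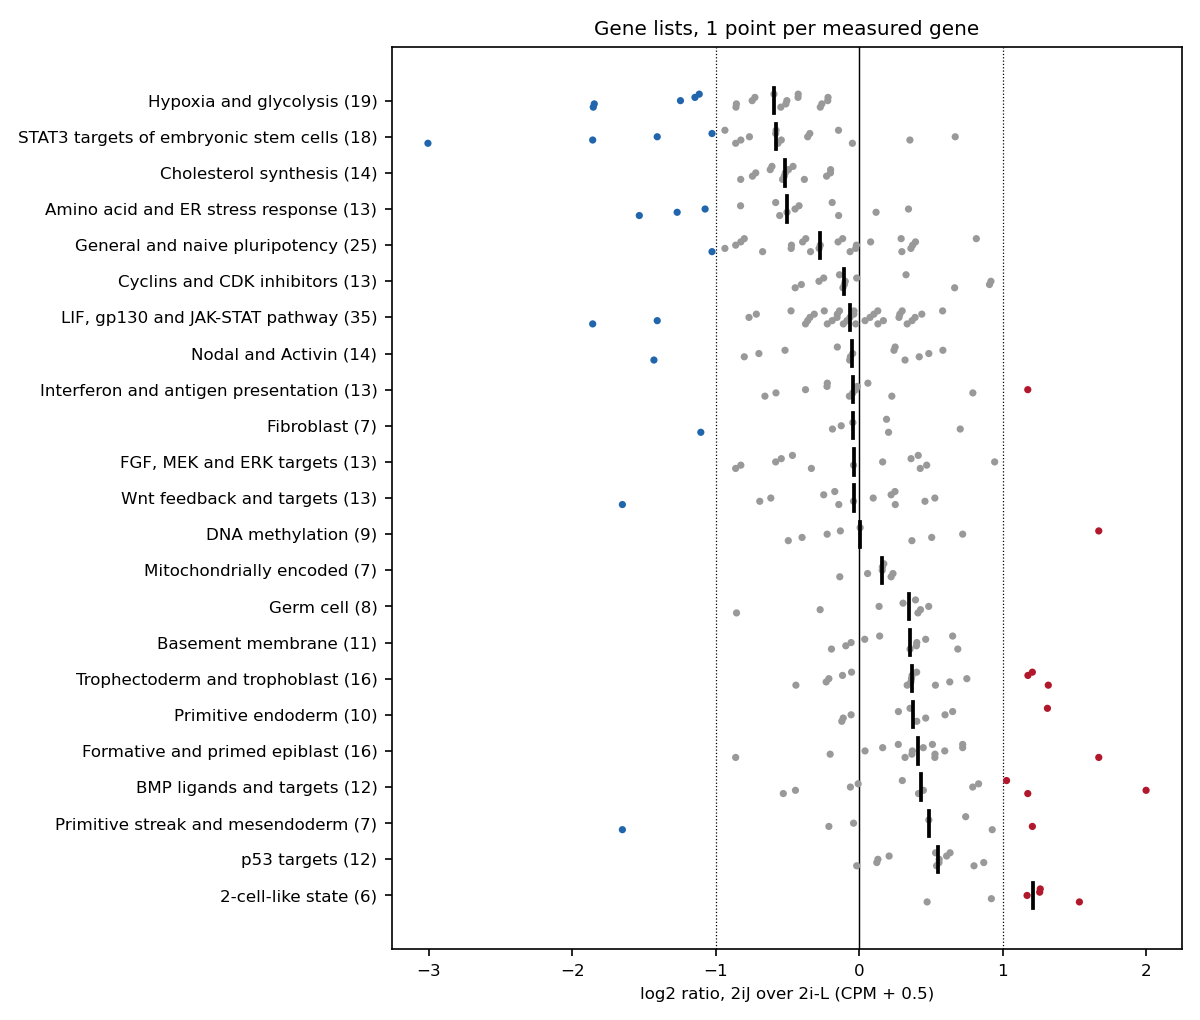
Log2 ratio of 2iJ to 2i-L (horizontal, CPM + 0.5) of every measured gene in the lists with at least 6 measured genes, 1 point a gene, sorted by the list median (black bar). The number measured follows each name. Dotted lines mark 2-fold, and red and blue points are genes called higher and lower. The hypoxia and glycolysis and the cholesterol lists lie wholly left of 0 and the 2-cell-like list wholly right.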

How the data were processed

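Poly-A RNA of R1 mESCs in 2i-L, 2iJ and 2iJ+B-A and of TSCs was sequenced as stranded pairs of 126 bases, and 1 library per culture was used here. The authors trimmed reads with cutadapt, mapped them with STAR 2.4.2a to NCBIM37 and deposited unnormalized counts of uniquely mapped read pairs per Ensembl gene (CASAVA 1.8.2 is also named in the submitters' processing notes). The annotation release is not given in the sources used here. Of each table the count on the reverse strand was used, which was 29.1 to 32.1 times that on the other strand. Counts on genes were 82.2% to 83.6% of read pairs, and 6.72% to 7.01% of pairs mapped to several places and were not counted on genes.

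Counts were scaled to CPM with TMM factors of all 4 libraries (edgeR 4.0.16, R 4.3.3). Ratios, intervals and lists were computed in Python 3.11.15 with scipy 1.17.1, after a test on simulated data. With 1 library a side no test was run. A gene was kept at 1 CPM in either library and called at 2-fold, with 0.5 CPM added. Symbols were found for 37205 of 37620 identifiers. Coordinates and GC content are from the GENCODE M1 annotation of NCBIM37. The longest coding transcript of each of 97 named genes was searched for in the genome with minimap2 2.31. No base-by-base alignment was made, so the share of bases matched elsewhere is an estimate. The 10 genes for which this estimate was over 40% are called uncertain. These are Bnip3, Gm5662, Id2, Il11ra1, Nanog, Pou5f1, Zscan4c, Zscan4d, Zscan4e and Zscan4f. Other listed genes were not searched for.

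The genes named, or given by range, were the pathway genes with 1 CPM, the 20 highest and 20 lowest log2 ratios among genes with 10 CPM in either library, every called member of the other lists, and Pou5f1, Sox2, Nanog and Esrrb. Further list members are given as examples and were chosen after their values were seen. The comparison and the 26 lists (359 symbols, 7 of them without a row and not analysed here) were chosen with earlier results of these data known. Alternatives were DESeq2 1.42.0 size factors, TMM from the pair alone, total counts, unstranded counts, other filters, pseudocounts and folds. List members that the text does not name are counted in the list totals only.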

Additional observations from a re-analysis of the deposited data

How the results depend on the processing

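The counts of 172 higher and 130 lower genes depended on the fold and on how low levels were treated. At 1.5-fold they were 702 and 530 genes, and at 3-fold 14 and 21. With at least 10 CPM in either library they were 45 and 52. Adding 0.1 CPM gave 313 higher and 192 lower genes, and adding 2 CPM gave 39 and 50. Under the other scalings, the unstranded count and no filter they ranged from 162 to 182 higher and from 120 to 134 lower genes. Of 60 named genes that were called, 11 were under 2-fold with 2 CPM added (Adm, Cdx2, Ddit3, Id3, Inhbb, Klf4, Pax6, Pdgfrb, Tap1, Zscan4e and Zscan4f), 1 with TMM from the pair alone (Pax6, at 0.996) and 1 with the unstranded count (Ddit3, at -0.80). Of the 97 named genes, 12 lay outside their counting interval with 2 CPM added and 4 with 0.1 CPM added, and none with the other scalings or the unstranded count. No named gene changed direction under any alternative run. The scalings moved the median of all genes by at most 0.017 on the log2 scale. No paired analysis was possible because 1 library per culture was used, and no replicate could be left out. Depth limits what can be told apart near 1 CPM, where Socs1, with 40 and 36 counts, had an interval of the log2 ratio from -0.61 to 0.34.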

Other observations

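Below 10 CPM, several genes differed by more than most on the lists, and all were chosen after their values were seen. Enpp2, which encodes autotaxin, had 36 counts in 2i-L and 293 in 2iJ, or 1.08 and 8.53 CPM, the largest log2 ratio of all genes compared at 2.51 [2.14 to 2.88], and was at 2.50 CPM in 2iJ+B-A. Gcm1, a factor of the labyrinthine trophoblast, was at 1.44 CPM in 2i-L and 5.62 CPM in 2iJ, while 2iJ+B-A had 28.0 CPM and TSC 0.399 CPM. Trim43a was at 2.32, 8.998 and 39.3 CPM in the same order of cultures, and at 0.0570 CPM in TSC. On the lower side, Ndufa4l2, a HIF target, was at 6.29 CPM in 2i-L and 0.845 CPM in 2iJ (-2.34 [-2.71 to -1.94]), with 0 counts in 2iJ+B-A, and the stress factor Nupr1 was at 6.53 and 1.05 CPM (-2.18 [-2.55 to -1.80]).

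Gm8332, Dub1a and Tmem92-ps were likewise chosen because they were higher. Gm8332 was at 1.56 and 5.18 CPM, Dub1a at 1.203 and 3.73 CPM and Tmem92-ps at 1.23 and 3.67 CPM, and all of them were under 1 CPM in 2iJ+B-A.

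At the 2-fold limit, Fam107a was the last gene called higher, at 0.752 CPM in 2i-L and 2.01 CPM in 2iJ, and Ms4a10 the first not called, at 1.32 and 3.15 CPM. On the lower side Gm15651 was called, at 1.08 and 0.291 CPM, and Dlgap3 was not, at 64.7 and 32.2 CPM. At the limit of 1 CPM, 6430548M08Rik was kept with 1.02 CPM in 2iJ and Rnf217 was left out with 0.992 CPM in 2i-L.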
